A study of Mus musculus with 14 samples.

Results

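The contractile genes of smooth muscle described here are Acta2, Actg2, Myh11, Tagln, Cnn1, Des, Lmod1, Smtn and Mylk, a fixed list of 9 genes among 30579 genes tested in the series, 17290 of them with a symbol. They were found through the RefSeq accession that the array gives for each probe, and 17 probes matched. Whole-lung RNA of male C57BL/6N mice was measured on 14 one-colour (Cy3) arrays 1 month after a single agent was given into the trachea. Each fibre was given at 200 µg per mouse: 3 mice received carbon fibre as it was before recycling (VCF), 3 received it after carbonization (CCF) and 3 received it after firing (RCF), against 5 control mice given the PBS vehicle. The series text calls the samples independent biological samples, and no source used here gives the age of the mice. The comparisons ask whether lung expression differs after each fibre and between the fibres.

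Smooth muscle wraps the conducting airways and the pulmonary arteries and veins, and sets their calibre. Calcium entering the cell activates myosin light chain kinase, which phosphorylates the myosin light chain and lets myosin pull on actin; a phosphatase, itself under the control of other kinases, removes that phosphate. Many genes of this apparatus are switched on by serum response factor with its coactivators of the myocardin family, which act through the CArG box, a short A/T-rich element. Myofibroblasts also make alpha smooth muscle actin, and desmin is shared with heart and skeletal muscle. In RNA of the whole lung, fewer cells of a type and less RNA per cell cannot be told apart.

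Levels are log2 of the background-subtracted signal relative to the 75th percentile of the same array, so that 0 is that percentile, and levels of different genes are not compared because they come from different probes. The 75th percentile of the signal lay between 277 and 2953 intensity units. The arrays stood on 3 slides: RCF 2, RCF 3, control 4 and control 5 on slide 3, which was scanned on another day, VCF 3, CCF 3 and control 3 on slide 2, and the other 7 arrays on slide 1. Of the 9 genes, 8 were well above background on all 14 arrays and Lmod1 on 10 of 14, and no spot was saturated. The mean level of 7 alveolar epithelium markers, as a check of the labelled tissue, was 6.05 or more on every fibre array and 6.22 or more on every control array. One control lung stood apart in its markers of skeletal muscle: the mean level of 9 such genes was −4.35 to −3.26 over the fibre arrays, against 2.06 in control 2 and −4.03 to −3.55 in the other controls. That lung was also the lowest control for 6 of the 9 contractile genes.

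The contractile genes did not change past the threshold in any comparison. A threshold of 0.05 on the adjusted p (limma, Benjamini-Hochberg over all genes) was passed by 0 of 63 tests, which are 9 genes in 7 comparisons, and 4 of the 63 had an unadjusted p below 0.05: Des in RCF against control, VCF and CCF, where 12.9%, 9.05% and 9.26% of all genes did, and Smtn in CCF against VCF, where 13.8% did. Against control, 0 of 9 passed for VCF, where 0.085% of all genes did. For CCF 0 of 9 passed, against 5.99% of all genes, and for RCF 0 of 9, against 0.154% of all genes. With the mean of the 3 fibres against control, 0 of 9 passed and 2.58% of all genes did. Between fibres 0 of 9 passed in each comparison, and the share of all genes was 0.222% for CCF against VCF, 0.00981% for RCF against VCF and 0.00327% for RCF against CCF.

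The median difference of the 9 genes from control was −0.10 (log2) for VCF, −0.04 for CCF and −0.11 for RCF. Over all genes it was −0.003, −0.003 and 0.064. With VCF 4 of the 9 were higher and 5 lower than control, with CCF 4 and 5, and with RCF 3 and 6. The widest limits of the 95% intervals for differences from control were −1.24 and 1.94, and for VCF, CCF and RCF the intervals of 5, 5 and 6 genes lay within 1 log2 unit of 0. A p that misses the threshold does not show that the levels were alike, and the number of arrays limits what these intervals can exclude.

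**Figure D1:**
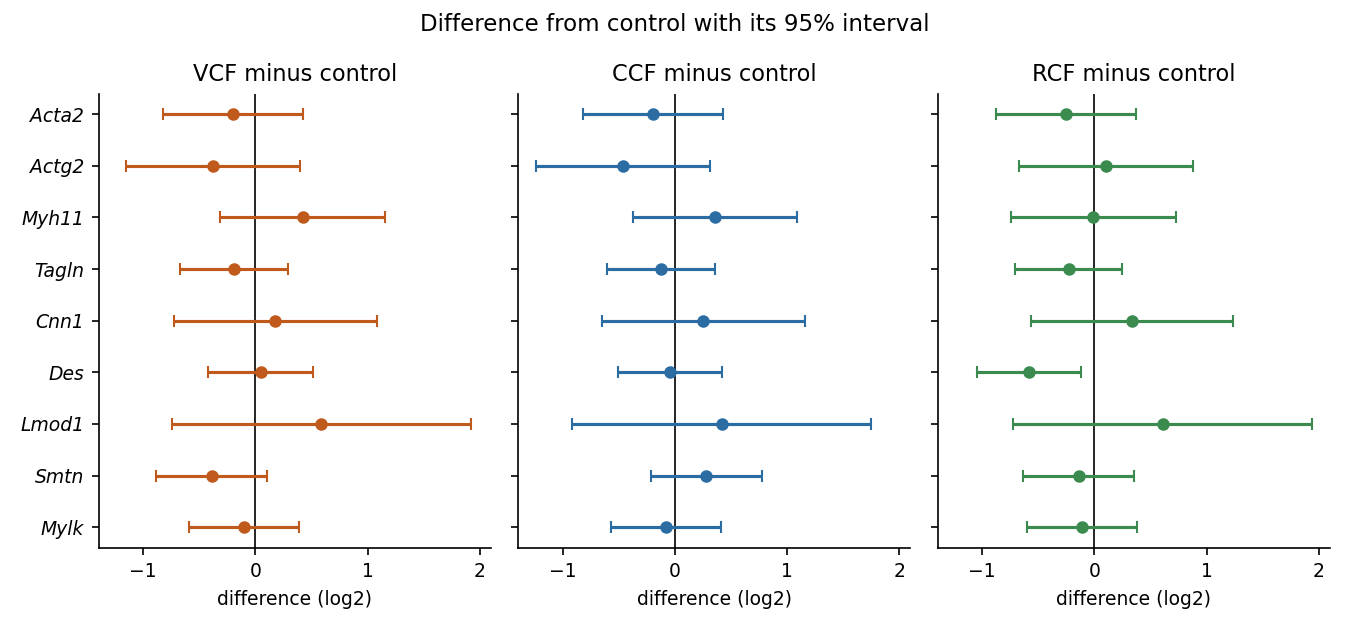
Difference in log2 level from control for the 9 contractile genes in VCF, CCF and RCF lungs, with points for the limma estimate and bars for the 95% interval. All intervals include 0 except that of Des in RCF lungs, at −0.58 with limits of −1.05 and −0.12.

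The thin filament of smooth muscle is built from actins. Acta2 encodes alpha smooth muscle actin, the actin of vascular and airway muscle and of myofibroblasts. Its level was 3.60, 3.16 and 3.72 in VCF lungs, 4.11, 3.25 and 3.13 in CCF lungs, 3.36, 3.45 and 3.50 in RCF lungs, and 3.73, 3.06, 4.38, 3.74 and 3.55 in control lungs. All 9 fibre lungs lay inside the range of the controls, whose highest value, in control 3, was 2.50-fold above the lowest, in control 2. The difference from control was −0.20 with VCF, −0.19 with CCF and −0.25 with RCF (each SE 0.29), with adjusted p of 0.913, 0.753 and 0.793 (limma), and at least 1 other probe of the gene gave a positive difference in each of these comparisons.

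Actg2 encodes gamma smooth muscle actin, best known from the muscle of the gut. Its level was 0.52, 0.00 and −0.39 in VCF lungs, 0.55, 0.03 and −0.70 in CCF lungs, 0.08, 0.77 and 0.72 in RCF lungs, and 0.13, 0.04, −0.05, 1.05 and 0.94 in control lungs. These values followed the slide: the 4 arrays of slide 3 lay between 0.72 and 1.05, above all 10 arrays of slides 1 and 2, which lay between −0.70 and 0.55. RCF and control alone were on slide 3, and there both RCF lungs were lower than both controls, by 0.25 on average. The difference of RCF from control was 0.10 over all arrays (SE 0.35, adjusted p 0.957, limma), with its sign turned to −0.21 (adjusted p 0.616) when slide was a term of the fit.

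Lmod1 encodes leiomodin 1, which starts new actin filaments in smooth muscle. Its probe was the faintest of the set relative to background: well above it in 2 of 3 VCF lungs, 2 of 3 CCF lungs, 3 of 3 RCF lungs and 3 of 5 control lungs. The level was −3.81, −4.07 and −5.28 in VCF lungs, −3.85, −3.67 and −6.13 in CCF lungs, −3.35, −5.14 and −4.61 in RCF lungs, and −4.53, −4.55, −4.56, −5.55 and −5.67 in control lungs. The fibre groups overlapped the controls, the spread within CCF alone was 1.37 (SD), and the differences from control of 0.59, 0.42 and 0.61 for VCF, CCF and RCF had an SE of 0.61 each.

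The promoters of Acta2 and Lmod1 are shown because, of the 6 members whose promoter is in the RefSeq table used (Acta2, Cnn1, Des, Lmod1, Mylk and Smtn), they are those that hold near forms of the CArG box in the 250 bases before the start of the gene. Capitals mark each stretch that differs from the CArG box at 1 base. The sequences are from GRCm38.p6: the Acta2 stretch is chr19:34255374-34255623, minus strand, and that of Lmod1 is chr1:135324563-135324812, plus strand.
Acta2 promoter: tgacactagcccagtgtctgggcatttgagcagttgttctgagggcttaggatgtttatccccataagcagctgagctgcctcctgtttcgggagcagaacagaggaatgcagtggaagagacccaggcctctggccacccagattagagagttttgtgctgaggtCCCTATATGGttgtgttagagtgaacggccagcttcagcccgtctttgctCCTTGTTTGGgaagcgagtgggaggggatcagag
Lmod1 promoter: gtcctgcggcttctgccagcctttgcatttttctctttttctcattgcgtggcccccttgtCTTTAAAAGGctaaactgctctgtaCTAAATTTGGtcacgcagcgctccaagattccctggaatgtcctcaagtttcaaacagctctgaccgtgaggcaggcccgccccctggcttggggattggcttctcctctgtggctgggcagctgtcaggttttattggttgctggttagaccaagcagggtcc

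In Acta2 the near forms were CCCTATATGG and CCTTGTTTGG, which begin 84 and 34 bases before the start, and in Lmod1 they were CTTTAAAAGG and CTAAATTTGG, 189 and 164 bases before it. The search covers both strands, since the CArG box reads the same way on either. None of the 6 promoters held an exact CArG box, which 1.47% of the 32851 promoters in the table do. A form with 1 mismatch was held by 17.5% of all promoters, and 2.69% held at least 2 such forms. A match is a description of these letters, binding was not tested, and elements farther from the start were not searched.

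A second set of members binds and steadies the thin filament. Tagln encodes transgelin, also called SM22 alpha, an actin-bundling protein and an early marker of the lineage. Its level was 4.24, 3.74 and 4.18 in VCF lungs, 4.42, 4.09 and 3.86 in CCF lungs, 4.08, 3.95 and 4.02 in RCF lungs, and 4.36, 3.76, 4.79, 4.06 and 4.26 in control lungs. Of the 9 fibre lungs 8 lay inside the control range, and VCF 2 was just below it. The 3 differences from control, −0.19, −0.12 and −0.23 (SE 0.22 each), had adjusted p of 0.877, 0.801 and 0.736 (limma).

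Cnn1 encodes calponin 1, which binds actin and slows the myosin ATPase, and it varied the most among control lungs. Its level was 2.73, 2.74 and 3.19 in VCF lungs, 3.46, 2.73 and 2.69 in CCF lungs, 3.01, 3.05 and 3.05 in RCF lungs, and 2.84, 1.52, 3.99, 2.63 and 2.54 in control lungs. The controls spanned 5.53-fold, from control 2 to control 3, and all 9 fibre lungs lay inside that span. The RCF lungs were close together at 3.04 ± 0.02 (SD, n = 3), against 2.70 ± 0.88 in control lungs (SD, n = 5). Without control 2 and 3, a setting chosen after seeing the data, the difference of RCF from control was 0.37 with an adjusted p of 0.533 (limma), against 0.33 and 0.819 with them.

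Smtn encodes smoothelin, a protein of fully contractile smooth muscle cells. Its level was 1.86, 1.93 and 2.46 in VCF lungs, 3.23, 2.33 and 2.68 in CCF lungs, 2.33, 2.35 and 2.31 in RCF lungs, and 2.34, 2.09, 2.87, 2.44 and 2.60 in control lungs. VCF 1 and 2 lay below all controls and CCF 1 above all of them. CCF was 0.67 above VCF (SE 0.25, unadjusted p 0.022, adjusted p 0.273, limma), with VCF and CCF overlapping at VCF 3 and CCF 2. Within slide 1 this difference was 0.89 and within slide 2, with 1 lung of each, it was 0.23. A second Smtn probe, for accession NM_001284427, was lower in RCF than in control by a difference of −0.51 (SE 0.18, unadjusted p 0.016, adjusted p 0.245), where the first, for NM_001284428, differed by −0.14.

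The motor of the cell and its switch form another set. Myh11 encodes the smooth muscle myosin heavy chain, which other cell types scarcely make. Its level was 0.28, −0.19 and 0.30 in VCF lungs, 0.57, −0.13 and −0.23 in CCF lungs, −0.21, −0.37 and −0.31 in RCF lungs, and −0.20, −1.18, 0.67, −0.22 and −0.51 in control lungs. All 9 fibre lungs again lay between control 2 and control 3, which were 3.61-fold apart. VCF and CCF differed from control by 0.42 and 0.36 and RCF by −0.01 (each SE 0.34), and the adjusted p were 0.776, 0.577 and 0.997 (limma).

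Mylk encodes myosin light chain kinase, the calcium-dependent switch of contraction. Its level was 3.89, 4.00 and 4.39 in VCF lungs, 4.18, 4.05 and 4.13 in CCF lungs, 4.02, 4.06 and 4.18 in RCF lungs, and 4.51, 3.46, 4.57, 4.31 and 4.11 in control lungs. Every fibre lung lay inside the control range, and the difference from control was −0.10, −0.07 and −0.11 with VCF, CCF and RCF (SE 0.22 each). Those were among the narrowest intervals of the set, with limits of −0.60 and 0.42 over the 3 fibres.

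Des encodes desmin, the intermediate filament that ties the contractile apparatus of smooth, cardiac and skeletal muscle together. Its level was 0.34, 0.11 and 0.38 in VCF lungs, 0.54, −0.21 and 0.24 in CCF lungs, −0.21, −0.31 and −0.53 in RCF lungs, and −0.17, 0.26, 0.77, 0.19 and 0.10 in control lungs. All 3 RCF lungs lay below all 5 controls. Groups did not overlap for 1 of the 9 contractile genes in RCF against control, where they did not for 11.4% of all genes. For VCF and CCF against control they overlapped for all 9, and failed to overlap for 7.38% and 16.3% of all genes. Des was −0.35 ± 0.17 in RCF lungs and 0.23 ± 0.34 in control lungs (SD, n = 3 and 5), a difference of −0.58 (SE 0.21, 1.50-fold lower, unadjusted p 0.0188) that did not pass after adjustment (adjusted p 0.263, limma).

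Des in RCF differed by −0.63 from VCF (unadjusted p 0.0221, adjusted p 0.469), and by −0.54 from CCF (unadjusted p 0.0439, adjusted p 0.531). These comparisons share the RCF lungs, as those with control share the 5 controls. Within slide 1 the RCF lung was 0.26 below the controls, and within slide 3 the RCF lungs were 0.57 below them. Heart muscle RNA varied between lungs too: the mean level of 13 cardiac markers was 1.64, 1.64 and 0.20 in RCF lungs and 0.78, 2.96, 2.57, 0.78 and 2.50 in control lungs. RCF 1 and RCF 2 thus lay above the lowest controls, and RCF 3 lay below all of them. Lower than control were 12 of the 13 in RCF, 10 in CCF and 8 in VCF, none past the threshold. Over all genes 57.1% were higher in RCF than in control. The 13 are markers of 1 tissue, so they are not 13 independent observations. The part of heart muscle in the level of Des was not tested.

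**Figure D2:**
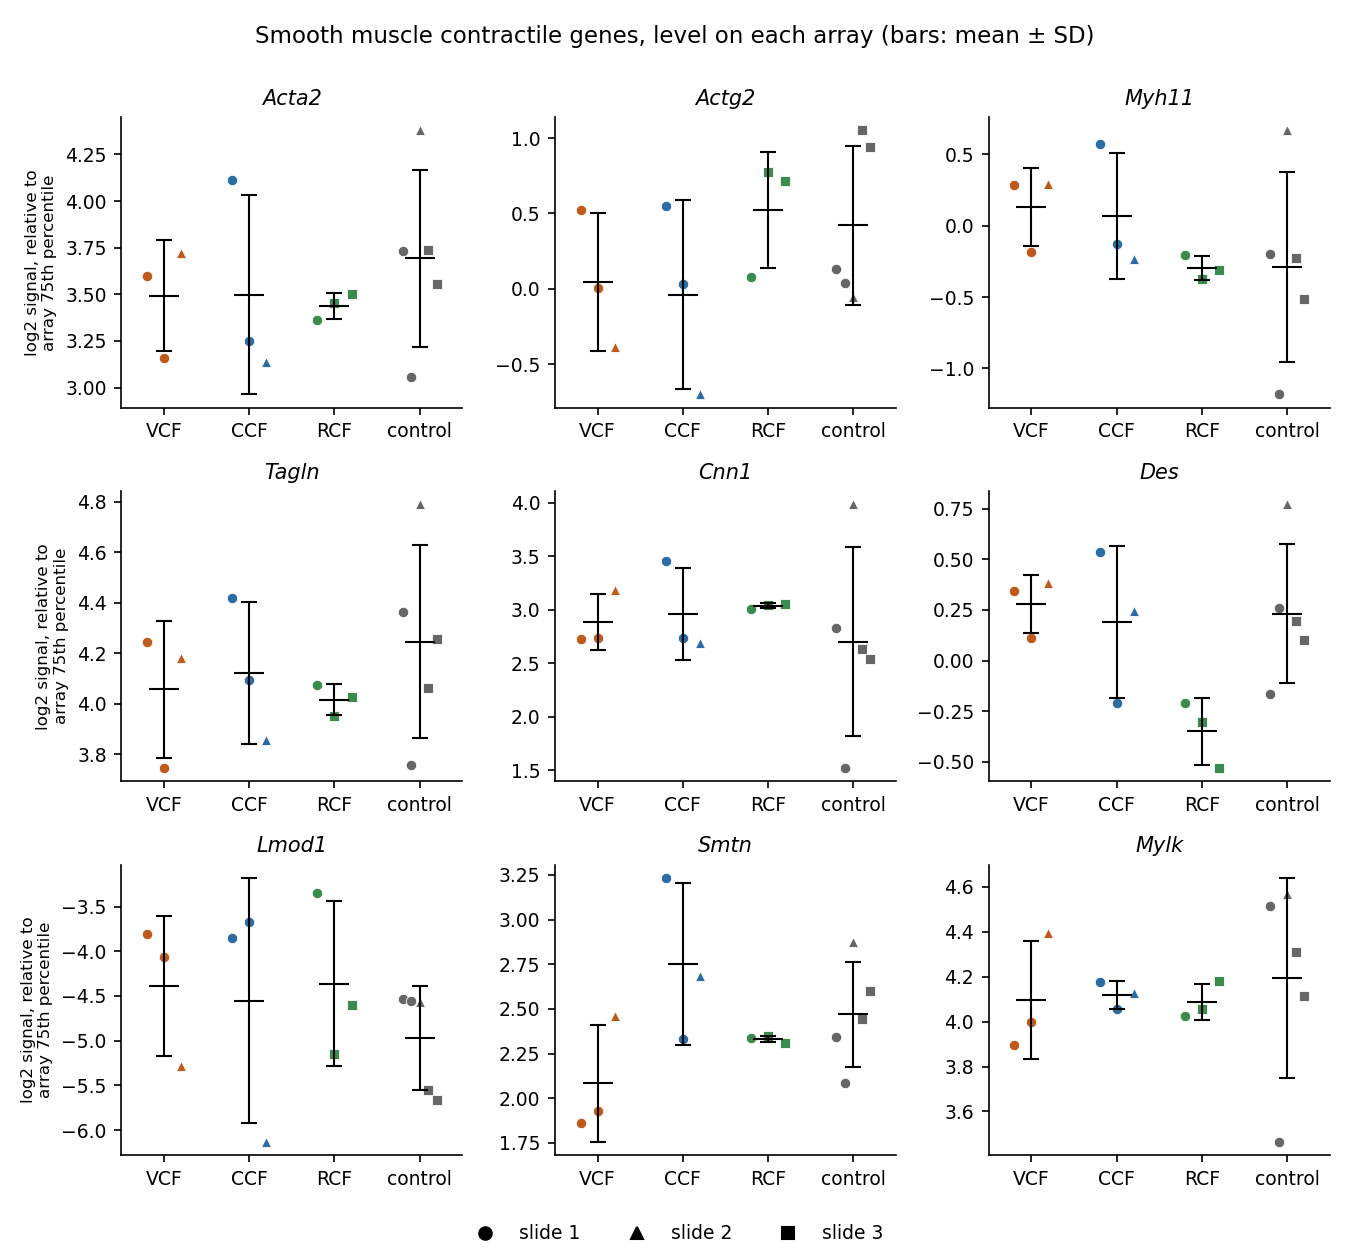
Level of each contractile gene on every array, as log2 signal relative to the 75th percentile of the array, for VCF, CCF and RCF (3 arrays each) and control (5 arrays). Bars are the mean ± SD and symbols give the slide. Control spans the fibre values for Acta2, Myh11, Cnn1 and Mylk, Des is lowest in RCF, and Actg2 is high on slide 3.

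Across the set, 65 of 81 fibre values lay inside the range of the 5 controls. Control 3 was the highest control for 7 of the 9 genes and control 2 the lowest for 6. Without both, the median difference from control was −0.17 for VCF, 0.15 for CCF and −0.18 for RCF, and 0 of the 9 genes passed in any comparison. CCF 1 stood out as the fibre lung in which all 9 genes lay above their own mean over the arrays. CCF 2 had 8 of 9 below their mean, and CCF 3, VCF 2, RCF 1, RCF 2 and control 2 had 7 each. The mean deviation of the 9 genes was 0.10, −0.14 and 0.02 in VCF lungs, 0.50, −0.03 and −0.34 in CCF lungs, 0.04, −0.10 and −0.04 in RCF lungs, and 0.03, −0.48, 0.52, −0.01 and −0.09 in control lungs.

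**Figure D3:**
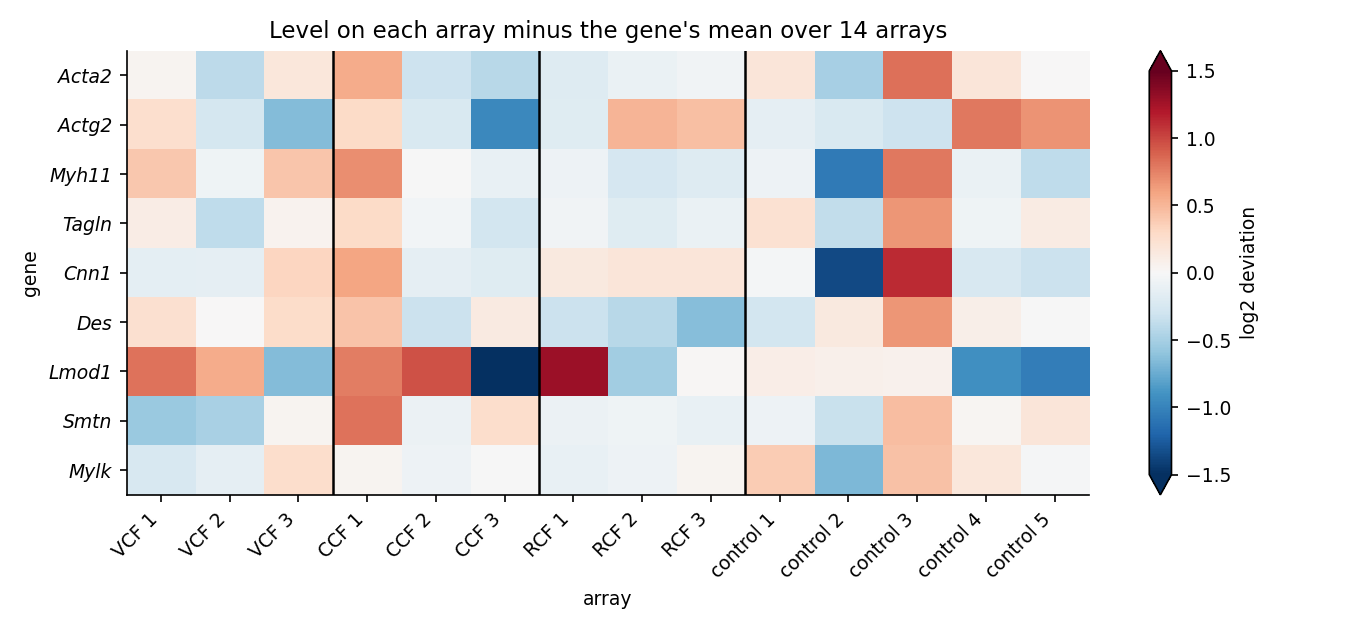
Level of each contractile gene (rows) on each array (columns) minus the mean of that gene over 14 arrays, in log2 units. CCF 1 and control 3 are high and control 2 is low for most genes, while the rows of Actg2 and Lmod1 follow other arrays.

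Some of the genes varied with Acta2 from lung to lung, by Pearson's r 5 of the other 8 and by rank 2 of them. The share of all genes that follow Acta2 as closely was not computed, and all levels of an array share its scaling. These counts therefore do not show that following Acta2 was particular to the contractile genes. With Acta2 as the anchor and 8 relations computed, Tagln followed it most closely (Pearson r 0.92, adjusted p 8.0e-05, from the smallest p that 100000 permutations can give, and Spearman rank correlation 0.82, adjusted p 0.00376, n = 14). Permutation tests (two-sided, n = 14) also passed for Myh11 and Cnn1 (r 0.77 each, adjusted p 0.00368 each), Mylk (r 0.71, adjusted p 0.00924) and Smtn (r 0.64, adjusted p 0.0245). They did not pass for Des (r 0.53, adjusted p 0.0694), Actg2 (r 0.23, adjusted p 0.488) or Lmod1 (r 0.03, adjusted p 0.906) in the same permutation test. The rank correlation passed for Tagln and Mylk (0.73 for Mylk, adjusted permutation p 0.0151) and was 0.58 for Myh11, 0.52 for Cnn1 and 0.52 for Smtn, with adjusted permutation p of 0.0883, 0.0992 and 0.0992. For Des, Actg2 and Lmod1 the rank correlation was 0.42, 0.31 and −0.06, with adjusted permutation p of 0.18, 0.328 and 0.843.

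Fewer relations passed without the 2 most extreme lungs. Without CCF 1 and control 3, the arrays farthest from the median of Acta2, r stayed at 0.81 for Tagln and 0.72 for Mylk (adjusted p 0.0111 and 0.0168, permutation test, n = 12), while their rank correlations of 0.71 and 0.66 no longer passed (adjusted permutation p 0.087 and 0.0966). It was 0.53 for Myh11 and 0.51 for Cnn1 (adjusted p 0.145 each, permutation test), 0.19 for Smtn (adjusted p 0.635), 0.47 for Actg2, −0.19 for Lmod1 and −0.00 for Des. Within slide 1, by an exact permutation test over 7 arrays, Tagln alone passed by r (0.91, adjusted p 0.0238) and none by rank (Tagln 0.93, adjusted p 0.054), and Actg2 had r 0.81 there (adjusted p 0.11). With the group means removed, r was 0.96 for Myh11, 0.91 for Tagln and 0.91 for Cnn1. It was 0.82 for Smtn, 0.70 for Mylk and 0.60 for Des. Adjusted permutation p were below the threshold for these genes, and by rank for all but Des (0.50, adjusted permutation p 0.0964). That permutation swapped values between groups and took no account of the means removed, so its p can be too small. No call is drawn from them.

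Genes whose level followed the mean of the 9 centred genes most closely, among 15751 with a symbol, were Optc (r 0.88), Fhad1 (r 0.81), Synpo2 (r 0.78) and Plscr3 (r 0.78), then Larp6, Dennd2a, Rbms2 and Tceal3 (r 0.74 to 0.75). Synpo2 encodes an actin-binding protein of smooth and striated muscle. Myl9, the regulatory myosin light chain of smooth muscle, ranked 21st (r 0.66) and Tpm2, a tropomyosin, ranked 97th (r 0.56). For other smooth muscle genes looked up, r was 0.35 for Kcnmb1, 0.33 for Ppp1r14a, −0.02 for Cald1 and −0.05 for Csrp1. The lowest values were those of Polr2k (r −0.85), Camp (r −0.82), Mir22hg (r −0.81) and Marveld3 (r −0.80). Camp, the neutrophil granule peptide cathelicidin, was −3.18 in CCF 1, against 1.95 in control 2 and −1.81 in control 3. These r are descriptions over 14 arrays that share the scaling to the 75th percentile.

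Of the 9 genes 5 have more than 1 probe, and the probes of 1 gene differed from control in opposite directions for 3 of these 5 in CCF (Acta2, Myh11 and Mylk), 2 in VCF (Acta2 and Mylk) and 1 in RCF (Acta2). The other 2 Acta2 probes differed from control by 0.18 and 0.57 in RCF and by −0.05 and 0.44 in CCF, none past the threshold. For Myh11, the probe for accession NM_013607, used above, was 0.36 higher in CCF than in control, while one for NM_001161775 was lower there by a difference of −0.36 and the other for that accession by −0.99, with adjusted p of 0.565, 0.634 and 0.369 (limma). The level of the NM_013607 probe minus that of the first NM_001161775 probe on the same array was 0.28, 0.50 and −0.02 in VCF lungs, 1.06, 0.77 and 0.55 in CCF lungs, 0.71, 0.99 and 0.50 in RCF lungs, and 0.08, 0.30, −0.04, 0.01 and 0.04 in control lungs. All CCF and RCF lungs lay above all controls. The difference from control in this value was 0.72 for CCF (SE 0.18, adjusted p 0.0277) and 0.66 for RCF (SE 0.18, adjusted p 0.152), and 0.18 for VCF (adjusted p 0.884), in a limma fit over 9198 pairs of probes of 1 gene, chosen after seeing the data.

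Among the 11 probe pairs of the contractile genes, that was the 1 pair that passed in CCF against control, where 9.86% of all pairs did, so that the share among these genes was near that of the array as a whole. In RCF against control 0 of 11 passed and 0.305% of all pairs did. The call for CCF was lost without control 1, 4 or 5 (adjusted p 0.054, 0.0645 and 0.0619) or without CCF 1 or 2 (adjusted p 0.141 and 0.0747), and was kept with slide as a term of the fit (adjusted p 0.0213).

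**Figure D4:**
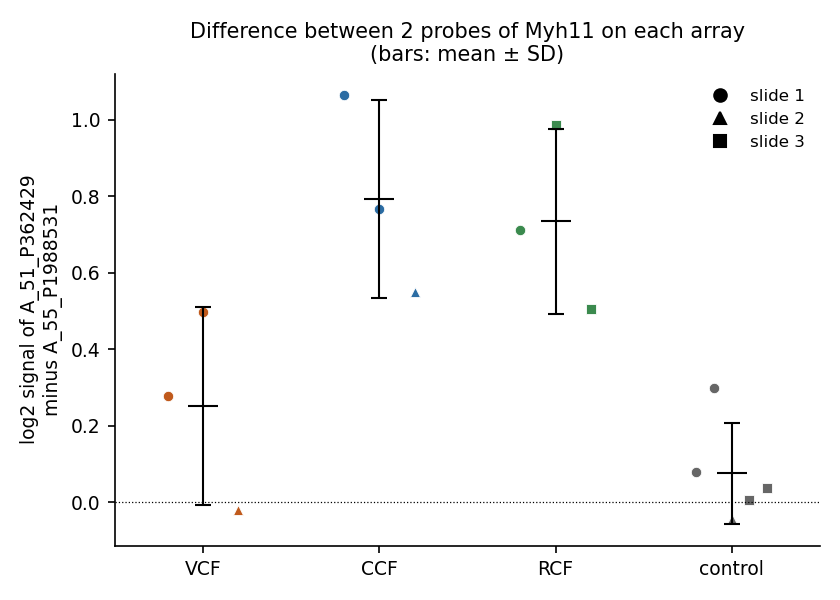
Log2 signal of the Myh11 probe for NM_013607 minus that of a probe for NM_001161775 on the same array, with the mean ± SD of VCF, CCF, RCF (3 arrays each) and control (5 arrays), and symbols for the slide. The CCF and RCF arrays lie between 0.50 and 1.06 and the controls between −0.04 and 0.30.

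Around the contractile genes, 15 companion lists with 155 different genes tested were read for the rest of the pathway and for other cell types. In CCF against control 9 of the 155 passed, 4 higher and 5 lower, a share of 5.81% against 5.99% of all genes. In the mean of the 3 fibres 1 rose and 1 fell, and in VCF against control, RCF against control and the 3 comparisons between fibres 0 of 155 passed. Of the 20 other contractile and cytoskeletal genes of smooth muscle 0 passed in any comparison. The mean of the 3 fibres differed most from control in Tpm1 (−0.41), a tropomyosin, Synm (−0.34), an intermediate filament protein, and Pgm5 (−0.33), with adjusted p of 0.443, 0.526 and 0.0736 (limma). Without control 2 the difference of Tpm1 was −0.21.

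Among 13 genes of calcium sensitivity and channels, the level of 1 fell and that of 1 rose past the threshold in CCF lungs. Ppp1r12a, the targeting subunit of myosin phosphatase, fell in CCF lungs by 1.18 (log2, adjusted p 0.0227, limma). Its level was 2.71, 2.81 and 3.08 in CCF lungs, against 4.01, 3.38, 4.29, 4.15 and 4.41 in control lungs, without overlap. Rock1, a kinase that inhibits this phosphatase, rose in CCF lungs by 0.55 (adjusted p 0.0413) and in the mean of the 3 fibres by 0.47 (adjusted p 0.0464), and its level was 2.87, 3.26 and 3.07 in CCF lungs, against 2.26, 2.71, 2.37, 2.48 and 2.76 in control lungs.

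The probes of Rock1 disagreed: a second was 1.07 higher in CCF than in control and the other differed by −0.47 (adjusted p 0.306, limma). Kcnmb1, a subunit of the large calcium-activated potassium channel, and Prkg1, the cGMP-dependent kinase of relaxation, differed by 1.36 and 0.88 in CCF with adjusted p of 0.115 and 0.173 (limma). The signal of Kcnmb1 was faint, at −7.03 to −3.57 over the arrays. In the mean of the 3 fibres Prkg1 differed by 0.65, and by 0.37 without control 2. Kcnmb1 differed there by 0.84, and by 0.86 without control 2. Thus 2 of the 13 genes on this list passed in CCF, 1 in each direction.

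Of 9 transcriptional regulators tested, Gata6 rose in CCF lungs by 0.64 (adjusted p 0.0251, limma), and the others did not pass, among them Mef2c (−0.82, adjusted p 0.167) and Nkx2-3 (−0.50, adjusted p 0.658). Myocd, the myocardin gene, was not among the genes tested. Of 13 receptors for constrictors and dilators, Chrm2, a muscarinic receptor of airway nerves and muscle, fell in CCF lungs by 1.48 (adjusted p 0.0302, limma). Its signal was faint, at −4.89, −5.04 and −4.90 in CCF lungs, against −3.54, −3.17, −2.80, −3.90 and −3.93 in control lungs. Ednrb, an endothelin receptor, rose in CCF lungs by 0.54 (adjusted p 0.049, limma), though another Ednrb probe differed by −0.29. Tbxa2r and Agtr1a, the thromboxane and angiotensin receptors, differed by −0.26 and 0.54 with adjusted p of 0.664 and 0.119.

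Of 17 relatives of the members in non-muscle and striated cells, Cnn2, the calponin of non-muscle cells, fell in CCF lungs by 0.52 (adjusted p 0.03, limma) and in the mean of the 3 fibres by 0.38 (adjusted p 0.0493). Acta1, Lmod3 and Mylk3, the forms of striated muscle, differed by −1.25, −0.55 and −0.87 in CCF without passing. Acta1 was 3.16 in control 2 and −2.73 to −2.22 in the other controls.

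The 10 markers tested for pericytes and other mural cells and the 8 for endothelium gave 3 more calls, all in CCF. There 5.99% of all genes passed, and 7 of the 10 and 5 of the 8 were lower than control. Higd1b, a pericyte marker, fell by 0.58 (adjusted p 0.0269), and the pericyte markers Cspg4 and Pdgfrb differed by −0.71 and −0.33 (adjusted p 0.0701 and 0.11). Tek, the angiopoietin receptor of endothelium, rose by 0.76 (adjusted p 0.0413), and Erg, an endothelial transcription factor, fell by 1.50 (adjusted p 0.0458), while Cdh5 differed by −0.62 (adjusted p 0.468). All these calls kept their direction in every other setting run for them, but each was lost in at least 9 of those settings, and leaving out 1 array at a time kept 1 to 10 of 14 fits past the threshold. With slide as a term of the fit, the calls for Ednrb, Erg and Tek in CCF were lost (adjusted p 0.0586, 0.0645 and 0.0815) and the others were kept.

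The remaining lists held 0 calls in any comparison. Their largest differences in the mean of the 3 fibres were Wnt5a, Hhip and Foxf1 for airway smooth muscle (−0.56, 0.30 and −0.20), Npnt, Col3a1 and Tcf21 for fibroblasts (−0.58, −0.53 and 0.40), and Myl3, Myl4 and Myl7 for heart muscle (−1.74, −0.62 and −0.62). For skeletal muscle they were Myh1, Tnni2 and Tnnt3 (−2.20, −1.44 and −1.23). For cartilage they were Col11a2, Col2a1 and Chad (0.34, −0.25 and 0.24), for airway epithelium Krt5, Ccdc39 and Bpifa1 (−0.53, 0.49 and 0.35), for mesothelium Upk3b, Msln and Wt1 (0.49, 0.46 and 0.31), and for alveolar epithelium Sftpb, Ager and Sftpc (−0.39, −0.25 and −0.25).

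Of these 24 differences, 14 moved by over 1.5 times or changed sign without control 2, a setting chosen after seeing the data and given with no test. Krt5, a basal cell keratin, was 3.79 in control 2 and −4.65 to −1.61 in the other controls, and without that array its difference turned to 0.87. That of Col2a1, the collagen of cartilage, turned to 0.03. Myl3 was 3.65 in control 2 and −1.05 to 0.18 in the other controls, and its difference was −0.92 without it. The differences of Myh1, Tnni2 and Tnnt3 were −0.29, −0.38 and −0.14 without control 2. Those of Npnt, Bpifa1, Chad, Upk3b, Msln and Wt1 were −0.88, 0.78, 0.39, 0.76, 0.71 and 0.63, and those of Ager and Sftpc −0.15 each.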

How the data were processed

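The deposited values are intensity values per spot, of which the processed signal was background-subtracted by Feature Extraction, version 10.7.3.1 per the file headers. The authors' deposited series table holds log2 values of 32177 probes, each column being log2 processed signal minus 1 constant per array, so its scale and direction are known, it is not centred per gene, while no source used here says where the constants come from. Its column medians were 0.30, −0.30 and −0.37 in VCF, −0.36, 0.16 and −0.34 in CCF, −0.17, −0.52 and −0.49 in RCF, and −0.05, −0.03, −0.29, −0.50 and −0.49 in control.

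From the array files, log2 processed signal minus the 75th percentile of the array was computed, spots marked as outliers were left out, and a probe was kept if 3 or more of 14 arrays had it well above background. Symbols came from RefSeq accessions (GRCm38.p6 table; 32994 of 56605 probes had 1 symbol), and the probe with the highest mean stood for a gene. Limma 3.58.1 in R 4.3.3 was fitted to all arrays with 4 groups and no covariate, and was tested on simulated data. Adjusted p is Benjamini-Hochberg over all genes. Correlations used permutation tests computed with numpy 2.4.6. The normexp alternative took the median signal, for lack of the mean signal.

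The members and lists were chosen with earlier results of these data known. Named companions are the 3 of each list with the largest difference in the mean of the 3 fibres, plus those past the threshold, at most 4 a list.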

Additional observations from a re-analysis of the deposited data

Results flagged for a closer look

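Among 28 sets of control values examined, 4 held an array far from the rest by the Dixon ratio, the gap to the nearest array over the range of the group, above 0.71 for 5 arrays. Chance alone flags about 5% of groups. The skeletal muscle markers had a mean log2 level of 2.06 in control 2 and of −3.80, −3.55, −3.97 and −4.03 in the other controls (ratio 0.921). The receptors for constrictors and dilators averaged −0.89 in control 3 and −1.13, −1.16, −1.20 and −1.23 in the others (ratio 0.722). For Myh11, the NM_013607 probe minus the second NM_001161775 probe was 3.37 in control 2 and 1.58, 1.54, 1.83 and 1.71 in the other controls (ratio 0.843). The first NM_001161775 probe minus the second was 3.07 in control 2 and 1.50, 1.58, 1.82 and 1.67 in the others (ratio 0.797). That second probe was not well above background on 1 of the 14 arrays, which is control 2 itself.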

How the results depend on the processing

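The 9 contractile genes were refitted under 27 tested settings: normexp background, quantile or median scaling, the authors' deposited values, other filters and probe rules, slide and replicate blocks, array weights, no dim arrays, each array left out, and no control 2 and 3. In those fits 0 of 1694 tests passed, 97 had an unadjusted p below 0.05, and the lowest adjusted p was 0.0507 (Des, RCF against control, array weights). Of 1811 values 166 changed sign, none of them past the threshold. Correlations between arrays of different groups were taken over all genes after each group's mean was removed. Arrays with the same replicate number then correlated above 0.1 in 12 of 18 pairs, others in 11 of 54 (median r 0.18 and −0.04). The main fit did not take the numbers as pairs, as 6 of the 18 did not exceed 0.1 and no sample label names a batch. The numbers partly followed the slide, however. Number 1 stood on slide 1 in every group, and numbers 2 and 3 of control, VCF and CCF stood on slides 1 and 2. RCF 2 and RCF 3 stood on slide 3. The pairs were not split by slide, so these counts do not decide whether the numbers are pairs. A fit with a replicate block also left out control 4 and control 5, whose numbers occur in no other group. With a replicate block 0 members passed, and their median difference from control was −0.01 for VCF, −0.06 for CCF and −0.09 for RCF. All 11 calls among companion genes were lost in it (adjusted p 0.0759 to 0.315, limma).

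Leaving out 1 array kept the median between −0.28 and 0.00 for VCF, −0.10 and 0.09 for CCF, −0.24 and −0.02 for RCF, and −0.19 and 0.00 for the mean of the fibres, and between −0.26 and 0.20, −0.06 and 0.06, and −0.24 and 0.04 for CCF against VCF, RCF against VCF and RCF against CCF. Within slide 2, with 1 lung a group, it was −0.42 for VCF, −0.90 for CCF and −0.64 for the mean of the fibres against control 3, the high control, and −0.32 for CCF against VCF. Within slide 1 it was 0.29 for CCF. With Acta2, r within slide 1 was 0.78 for Myh11, 0.73 for Cnn1, 0.74 for Smtn and 0.63 for Mylk, none past the threshold. Without the 2 arrays farthest from the median it was 0.53 for Myh11, 0.51 for Cnn1 and 0.19 for Smtn, again not past it. With group means removed r was 0.60 for Des, in a setting whose permutation p can be too small. The difference between the Myh11 probes in CCF lost its call with a replicate block (adjusted p 0.0876), without the 3 dimmest arrays (0.0774) and with normexp background (0.0959). The causes were not tested. Signal limits Lmod1 most, which was not well above background on every array.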
